A study of Mus musculus with 29 samples.

Results

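Notch receptors and Notch target genes were examined in mouse pro-B cells with and without the transcription factor Pax5. The 8 genes are Notch1, Notch2 and Notch3 (receptors), Rbpj (the DNA-binding partner of the cleaved receptors), and Hes1, Heyl, Dtx1 and Nrarp (genes that Notch signalling is known to induce in many cell types). They were matched by gene symbol, and all 8 were found among the 24732 entries of the tables aligned to mm9 and among the 25588 entries of the tables aligned to mm10. RNA-seq values were compared between 3 libraries of wild-type pro-B cells and 2 libraries of Pax5(-/-) pro-B cells, which lack functional Pax5 in all cells from the germline. A further group of 3 libraries comes from pro-B cells of Meox2-cre mice at the age of 3 weeks, in which Cre is expressed from the Meox2 locus. The sample labels give these mice as Pax5(+/+) and their cells as pooled, whereas the study's list of sequencing runs gives a heterozygous Pax5 genotype. All mice were on the C57BL/6 background, the cells were sorted ex vivo from bone marrow, and the age of the wild-type and Pax5(-/-) mice is not given in the sources used here. The methods sort the Pax5-deficient progenitors as Ly6D-positive cells and use another combination of surface markers for pro-B cells, so that the gate and the genotype cannot be told apart.

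Notch receptors are single-pass membrane proteins. Binding of a Delta or Jagged ligand on a neighbouring cell exposes the receptor to an ADAM protease and then to the γ-secretase complex, which frees the intracellular domain. In the nucleus this domain joins Rbpj and a Mastermind coactivator and turns Rbpj from a repressor into an activator of genes such as Hes1, Dtx1 and Nrarp. Notch1 signalling in the thymus directs lymphoid progenitors to the T cell lineage, Notch2 is needed for marginal zone B cells in the spleen, and Pax5 is known for holding committed B cell progenitors in their lineage.

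All values are TPM, a measure of transcript abundance in which reads per gene are divided by gene length and scaled to the same sum of 1000000 in every library, so that levels of different genes can be compared within a library and the depth in reads is unknown. Pax5 itself stood at 342, 386 and 391 TPM in wild-type cells, as against 43.0 and 39.1 TPM in Pax5(-/-) cells, and the gene-level tables do not show from which exons the remaining reads come. All 10 markers of the B lineage fell in Pax5(-/-) cells. The summed TPM of the 7 myeloid markers ranged from 45.9 to 252 in wild-type and from 55.4 to 83.7 in Pax5(-/-) libraries, and that of the 6 erythroid markers from 183 to 413 and from 19.3 to 114. For the 8 T cell markers the sum ranged from 32.8 to 62.0 and from 53.4 to 53.8. This sum was carried mostly by Lat, at means of 38.0 TPM in wild-type and 43.6 TPM in Pax5(-/-) libraries, and hides changes in both directions. Mean Cd4 went from 0.534 to 4.93 TPM and mean Trat1 from 0.0596 to 1.49 TPM, whereas mean Cd5 went from 8.83 to 2.97 TPM. Cd3d, Cd3e, Cd3g and Cd8a had means under 1 TPM in both genotypes. For the 6 markers of plasmacytoid dendritic cells it ranged from 913 to 998 and from 354 to 465. In bulk samples, fewer cells of a type and less RNA per cell cannot be told apart. Genes whose mean exceeded 1 TPM in either genotype were tested with limma on log2(TPM + 0.5), and p-values were adjusted over all 12066 of them. A gene was called when its adjusted p was below 0.05, its change exceeded 3-fold and its mean exceeded 5 TPM in either genotype. These thresholds follow the methods of the study.

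Of the 8 genes, 2 rose (Notch1 and Notch2) and 2 fell (Heyl and Dtx1) in Pax5(-/-) pro-B cells by the adjusted p, and 4 did not pass (Notch3, Rbpj, Hes1 and Nrarp). Among all genes tested, 15.6% rose and 21.5% fell. With the size and level thresholds added, Notch1 was called higher and Heyl lower, against 2.74% and 3.19% of the 11920 genes tested that are not immunoglobulin or T cell receptor entries. The 8 genes all passed the filter on low values, Notch3 with a mean just above it in the Pax5(-/-) libraries alone, and Heyl and Dtx1 through the wild-type libraries alone. Their median log2 fold change was 0.10, beside -0.12 over all genes tested. The libraries of both genotypes did not overlap for 5 of the 8 genes, and they did not overlap for 63.4% of all genes tested.

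**Figure D1:**
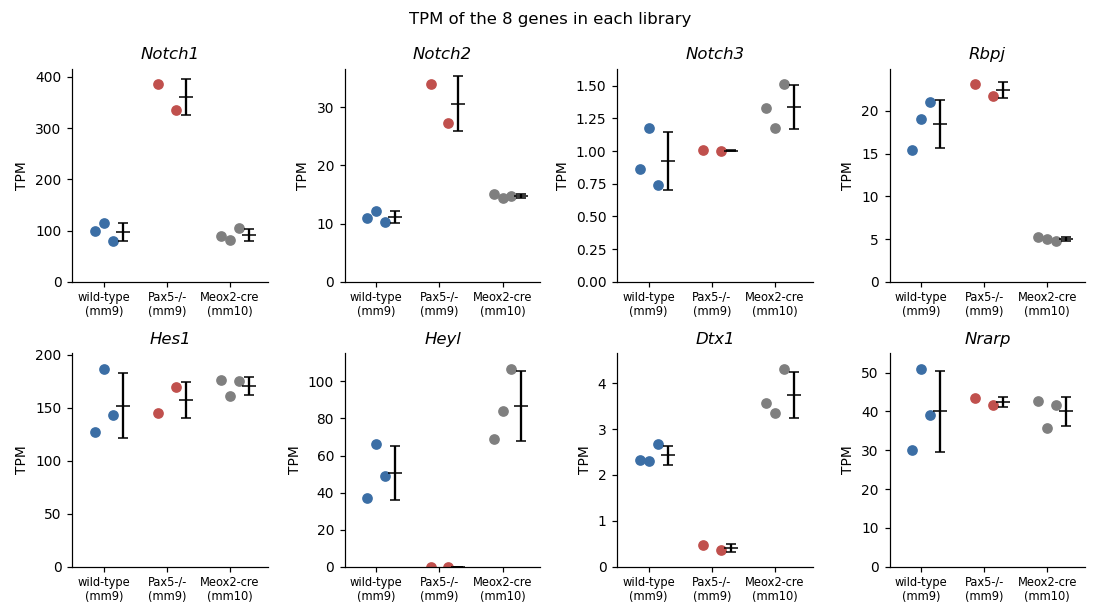
TPM of each gene in every library of wild-type and Pax5(-/-) pro-B cells (mm9 tables) and of Meox2-cre pro-B cells (mm10 tables). Points are libraries, and the bars beside them give the mean and the SD. Notch1 and Notch2 stand higher, and Heyl and Dtx1 lower, in both Pax5(-/-) libraries than in all other libraries.

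Promoter sequences are shown for the 3 genes that changed and have a window in the RefSeq promoter table, and for Hes5, a family member of Hes1 and Heyl whose window holds the core motif bound by Rbpj. The table (build GRCm38.p6) gives 250 bases before to 50 after the start of each gene. It holds 7 windows for 6 of the 8 genes, namely Notch1, Notch2, Notch3, Rbpj (2 windows), Dtx1 and Nrarp. The motif searched was GTGGGAA on both strands, which reads TTCCCAC on the other strand. It was found in 0 of these 7 windows and in 6.38% of all 32851 windows. The Hes5 window holds 2 matches in opposite orientation, at 226 and 83 bases before the start, and 0.1% of all windows hold the motif on both strands. Hes6, another family member that was searched, held no match in its windows. The 250 bases before each start are printed 5′ to 3′ on the strand of the gene, with capitals for the motif. They are the regions chr2:26503823-26504072 (minus strand) for Notch1, chr3:98013288-98013537 (plus) for Notch2, chr5:120711670-120711919 (minus) for Dtx1 and chr4:154960673-154960922 (plus) for Hes5.
Notch1: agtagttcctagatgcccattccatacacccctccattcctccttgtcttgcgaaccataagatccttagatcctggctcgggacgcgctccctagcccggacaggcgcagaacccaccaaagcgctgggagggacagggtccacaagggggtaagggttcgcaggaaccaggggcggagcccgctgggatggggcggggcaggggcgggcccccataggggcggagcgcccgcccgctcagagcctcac
Notch2: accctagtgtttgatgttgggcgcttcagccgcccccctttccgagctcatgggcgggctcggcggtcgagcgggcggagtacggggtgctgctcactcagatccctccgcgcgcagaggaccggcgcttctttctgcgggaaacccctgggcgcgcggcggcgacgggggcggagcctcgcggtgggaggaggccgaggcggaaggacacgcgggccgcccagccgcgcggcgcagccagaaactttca
Dtx1: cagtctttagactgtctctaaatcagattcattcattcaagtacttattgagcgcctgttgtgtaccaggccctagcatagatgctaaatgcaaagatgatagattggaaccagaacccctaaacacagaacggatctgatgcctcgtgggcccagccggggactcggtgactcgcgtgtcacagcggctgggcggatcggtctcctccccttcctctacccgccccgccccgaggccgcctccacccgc
Hes5: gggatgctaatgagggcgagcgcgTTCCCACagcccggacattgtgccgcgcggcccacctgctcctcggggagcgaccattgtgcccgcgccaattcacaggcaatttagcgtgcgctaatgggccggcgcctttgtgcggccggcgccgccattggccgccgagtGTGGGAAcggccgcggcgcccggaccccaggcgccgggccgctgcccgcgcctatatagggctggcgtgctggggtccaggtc
The Notch2 sequence is the richest of the 4 in CG dinucleotides, with 34 of them and 72.0% G and C, followed by Hes5 with 32 and 71.6%. Notch1 holds 16 at 66.0% G and C, and Dtx1 15 at 56.4%. The absence of capitals says only that these letters are not in the window.

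Of the receptors, Notch1 and Notch2 rose in Pax5(-/-) pro-B cells and Notch3 did not pass the test. Notch1 (mm9 chr2:26313423-26372183, minus strand) is the receptor of T cell commitment. It measured 98.5, 114 and 79.9 TPM in the wild-type libraries and 386 and 336 TPM in the Pax5(-/-) libraries. Both Pax5(-/-) libraries lie far above the highest wild-type library. The log2 fold change was 1.89 (SE 0.16, limma adjusted p = 0.000141), a 3.72-fold increase with a 95% interval of 2.88 to 4.79, so that the interval includes the 3-fold threshold. Against a change of 3-fold itself (limma treat), Notch1 was not called. The 3′ end of Notch1 overlaps genes on the opposite strand in the annotation, the reads were counted without a strand setting, and their reads cannot be told apart. The entry names of Jag2, Adam17, Dtx3l and some other genes reported below carry the same overlap mark as that of Notch1.

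Notch2 (mm9 chr3:97817461-97954290, plus strand), the receptor of marginal zone B cells, measured 10.9, 12.2 and 10.3 TPM in wild-type and 33.9 and 27.3 TPM in Pax5(-/-) libraries. Again the genotypes do not overlap, at a level far below that of Notch1. The log2 fold change was 1.42 (SE 0.17, limma adjusted p = 0.00068), or 2.67-fold, with an interval of 2.04 to 3.49. Notch3 (mm9 chr17:32257765-32303825, minus strand), best known from vascular smooth muscle, measured 0.861, 1.17 and 0.740 TPM in wild-type and 1.01 and 1.00 TPM in Pax5(-/-) libraries. The Pax5(-/-) values lie within the wild-type range. Its interval of 0.677 to 1.67-fold leaves changes of that size undecided (limma adjusted p = 0.820).

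The receptors can be added up because TPM are per length. Notch1 to Notch4 together came to 110 ± 18.3 TPM (SD, n = 3) in wild-type and 393 ± 39.6 TPM (SD, n = 2) in Pax5(-/-) libraries, 3.57 times as much. Notch1 made up 89.1, 89.3 and 87.4% of this sum in the wild-type libraries and 91.6 and 92.2% in the Pax5(-/-) libraries. Its share was higher in both Pax5(-/-) libraries than in any wild-type library, by 3.30 percentage points in the means (exact two-sided permutation test, p = 0.1). This is the smallest p that the 10 splits of 5 libraries allow. The share of Notch2 was 10.2 ± 0.90% in wild-type (SD, n = 3) and 7.77 ± 0.410% in Pax5(-/-) libraries (SD, n = 2). Notch4, the fourth receptor, lay between 0.273 and 0.556 TPM in the 5 libraries and was too low to be tested.

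Rbpj (mm9 chr5:53947018-54048684, plus strand), through which all Notch receptors act on DNA, measured 15.4, 19.0 and 21.0 TPM in wild-type and 23.1 and 21.8 TPM in Pax5(-/-) libraries. The lower Pax5(-/-) library lies just above the highest wild-type library. The log2 fold change was 0.28 (SE 0.17) and did not pass (limma adjusted p = 0.220), with an interval of 0.928 to 1.60-fold. This call depends on the scaling: all genes tested have a median of -0.12, which median-ratio rescaling moves to -0.0031, and Rbpj then passed with a log2 fold change of 0.40 (adjusted p = 0.0393), as it did after quantile normalization (0.39, adjusted p = 0.0329).

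**Figure D2:**
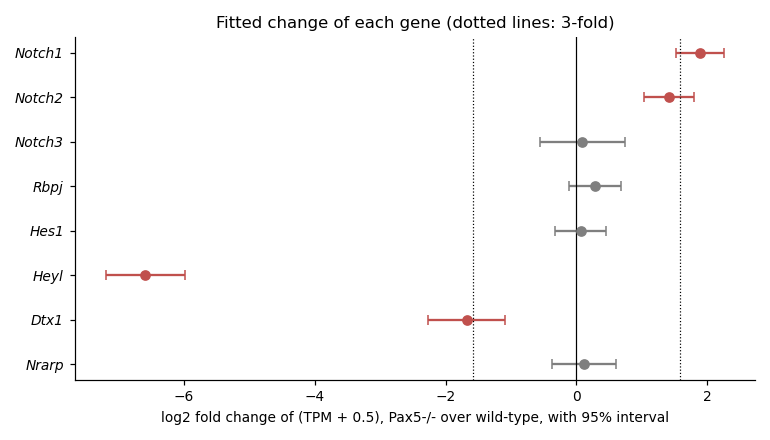
Fitted log2 fold change of each gene in Pax5(-/-) over wild-type pro-B cells on the log2(TPM + 0.5) scale. Points are estimates and bars 95% intervals, red where the adjusted p is below 0.05, and dotted lines mark 3-fold. The intervals of Notch3, Rbpj, Hes1 and Nrarp include 0, and that of Heyl, at -6.59, is apart from all others.

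The target genes split into 2 that fell and 2 that did not pass. Heyl (mm9 chr4:122910799-122927118, plus strand), a repressor of the Hes and Hey family, measured 37.0, 66.1 and 48.8 TPM in the wild-type libraries. In the Pax5(-/-) libraries it measured 0.0327 TPM in replicate 1 and was listed at 0 in replicate 2. It was thus well expressed in every wild-type library and near or at 0 in both Pax5(-/-) libraries. The log2 fold change was -6.59 (SE 0.26, limma adjusted p = 5.73e-06), the fourth lowest of the 12066 genes tested. Its size depends on the pseudocount, from -8.74 with 0.1 to -5.63 with 1, and is no measure of the true ratio. Heyl is also expressed in vessel walls. The 12 markers of vessel wall and stromal cells summed to between 79.4 and 134 TPM in wild-type and between 94.5 and 107 TPM in Pax5(-/-) libraries, a sum carried by Pecam1 and Col1a1, which did not pass. Of the 5 markers tested, Kdr (from 1.10 to 0.0422 TPM) and Cxcl12 (from 1.17 to 0.158 TPM) fell and Pdgfrb (from 0.253 to 1.69 TPM) rose, with limma adjusted p of 0.00637, 0.0133 and 0.00533. The other 7 were below 1 TPM on average in both genotypes, with Tek, Cspg4, Rgs5 and Lepr at 0 in some libraries. Kdr and Cxcl12 passed the filter on low values through the wild-type libraries alone, and Pdgfrb through the Pax5(-/-) libraries alone. The part of such cells in the fall of Heyl was not tested.

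Dtx1 (mm9 chr5:121130211-121161936, minus strand), a Deltex ubiquitin ligase that acts on the Notch pathway, measured 2.32, 2.31 and 2.67 TPM in wild-type and 0.478 and 0.353 TPM in Pax5(-/-) libraries. All wild-type values lie above both Pax5(-/-) values, at a low level. Dtx1 fell by 1.68 on the log2 scale (SE 0.25, limma adjusted p = 0.00227). With a pseudocount of 0.1 it fell by 2.30 and with 1 by 1.28, and with means under 5 TPM it could not be called.

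Hes1 (mm9 chr16:30064470-30067882, plus strand), a repressor and the most widely used readout of Notch signalling, measured 127, 186 and 143 TPM in wild-type and 145 and 169 TPM in Pax5(-/-) libraries. Both Pax5(-/-) values lie within the wild-type range. The log2 fold change was 0.06 (SE 0.17, limma adjusted p = 0.785), with an interval of 0.797 to 1.37-fold. Nrarp (mm9 chr2:25036278-25038850, plus strand), a small ankyrin-repeat protein that limits Notch signalling, measured 30.1, 50.9 and 39.0 TPM in wild-type and 43.4 and 41.6 TPM in Pax5(-/-) libraries. It too lay within the wild-type range, with an interval of 0.776 to 1.52-fold (limma adjusted p = 0.682). For these 2 genes an increase as large as that of Notch1 lies outside the interval.

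In wild-type cells the order by mean TPM was Hes1, Notch1, Heyl, Nrarp, Rbpj, Notch2, Dtx1 and Notch3. Only the ranges of the neighbours Heyl and Nrarp overlapped, and Heyl was above Nrarp in 3 of 3 libraries. In Pax5(-/-) cells the order was Notch1, Hes1, Nrarp, Notch2, Rbpj, Notch3, Dtx1 and Heyl, with no overlap between neighbours over the 2 libraries. Notch1 thus moved past Hes1, and Heyl moved to the last place.

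**Figure D3:**
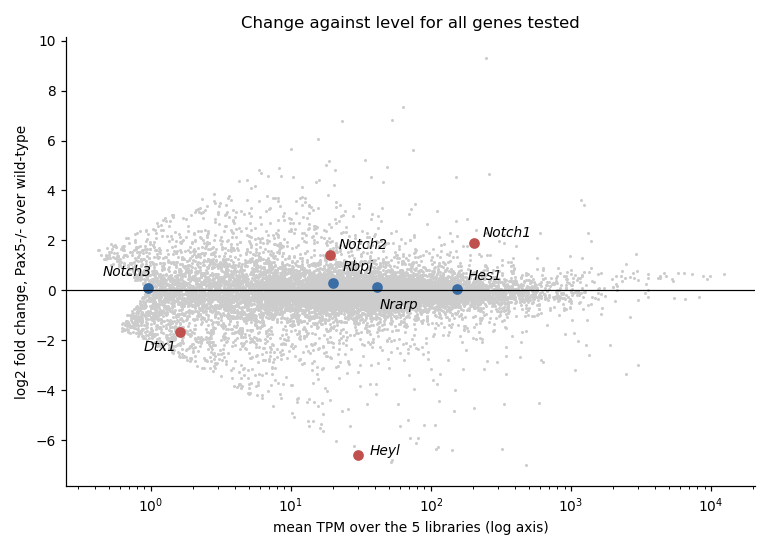
Log2 fold change in Pax5(-/-) over wild-type pro-B cells against the mean TPM over the 5 libraries (log axis), for the 12066 genes tested (grey). The 8 genes are marked, red where the adjusted p is below 0.05 and blue elsewhere. Heyl, at -6.59, lies at the lower edge of all genes, and Notch1 lies at 1.89.

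The wild-type libraries were not alike for the target genes. Replicate 1 was the lowest wild-type library for Hes1, Heyl, Nrarp and Rbpj, and replicate 2 was the highest for 6 of the 8 genes. The coefficient of variation over the 3 libraries was 29.0% for Heyl, 26.0% for Nrarp and 20.2% for Hes1, and it was 8.95% for Notch2 and 8.46% for Dtx1. Replicate 1 also held the lowest sums of myeloid markers (45.9 TPM, against 192 and 252 in the other 2) and of erythroid markers (183 TPM, against 348 and 413). The part of these cells in the spread was not tested. Without wild-type replicate 1, Hes1 and Nrarp had log2 fold changes of -0.06 and -0.07 in place of 0.06 and 0.12, and neither passed.

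In the Meox2-cre libraries, which were aligned to another build with other software, levels can only be set side by side. Notch1 measured 89.4, 81.3 and 104 TPM, Notch2 15.0, 14.4 and 14.7 TPM, and Notch3 1.33, 1.18 and 1.51 TPM. Notch1 lay within the range of the wild-type libraries and below both Pax5(-/-) libraries. Heyl measured 69.0, 83.9 and 107 TPM and Dtx1 3.56, 3.36 and 4.30 TPM, all above the wild-type libraries. Hes1 was at 171 ± 8.50 TPM and Nrarp at 40.1 ± 3.73 TPM (SD, n = 3 for each), both within the wild-type range. Rbpj measured 5.24, 5.04 and 4.83 TPM, 0.273 times the wild-type mean. Among the gene symbols that both tables share, Rbpj ranked at the 71.5 to 72.6 percentile in wild-type and at the 60.1 to 60.3 percentile in Meox2-cre libraries. Psenen, Cir1 and Aph1a, genes of the pathway lists singled out after their values were seen, also differed, at 0.0373, 0.10 and 0.119 times their wild-type means, and the part of the annotation in these differences was not tested.

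Beyond the 8 genes, 73 further genes of the Notch pathway in 8 lists were examined, of which 53 could be tested. Of these 10 rose (18.9%), 9 fell (17%) and 34 did not pass, shares close to the 15.6% and 21.5% of all genes tested. Their median log2 fold change was -0.09 (all genes tested: -0.12). With either Pax5(-/-) library left out, most of the 19 pathway genes that had passed no longer did. Fewer of all genes tested also passed without a Pax5(-/-) library. After median-ratio rescaling 15 pathway genes rose (28.3%) and 8 fell (15.1%), and after quantile normalization 15 rose (28.3%) and 9 fell (17%). Over all genes tested, the share that rose moved the same way, to 20% and 20.4%, and the share that fell went to 18.6% and 19.6%. The distance between the pathway and all-gene shares that rose thus depends on the scaling. With the thresholds of size and level added, 2 genes were called, Dlk1 and Dtx4, both higher in Pax5(-/-) cells.

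Of the 7 ligands, 5 (Dll1, Dll3, Dll4, Jag1 and Dlk2) had means under 1 TPM in both genotypes and were not tested. The other 2 rose, beside 15.6% of all genes tested. Of these 2, Dlk1 passed the filter on low values through the Pax5(-/-) libraries alone, which favours a rise. Dlk1, a noncanonical ligand without the domain that activates Notch, measured 0.368, 0.103 and 0.0509 TPM in wild-type and 5.39 and 5.15 TPM in Pax5(-/-) libraries. It went from near 0 to a low level, with a log2 fold change of 3.12 (SE 0.30, limma adjusted p = 0.000292). Jag2, a canonical ligand, measured 6.65, 8.94 and 9.12 TPM in wild-type and 17.6 and 15.5 TPM in Pax5(-/-) libraries. The genotypes do not overlap, and the log2 fold change was 0.98 (SE 0.20, limma adjusted p = 0.00731).

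Of the 5 genes of receptor glycosylation, 0 rose and 0 fell. The Fringe enzymes Lfng and Mfng, which tune the choice of ligand, were the highest of them, at 198 and 162 TPM in wild-type and at 209 and 198 TPM in Pax5(-/-) cells (limma adjusted p = 0.628 and 0.0704). Mfng passed after median-ratio rescaling (adjusted p = 0.0411). Of the 9 cleavage proteases tested, 0 rose and 3 fell, beside 15.6% and 21.5% of all genes tested. Those that fell were Adam10 (from 69.2 to 48.6 TPM), Adam17 (from 39.4 to 29.8 TPM) and Psen2 (from 68.0 to 44.7 TPM). Their log2 fold changes were -0.50, -0.39 and -0.59. Adam17 no longer passed after median-ratio rescaling (limma adjusted p = 0.0638), quantile normalization (0.0540) or without the intensity trend (0.0626). It also did not pass without wild-type replicate 2 (0.0921) or 3 (0.0620). Furin, in the same list, did not pass in the main comparison but rose after median-ratio rescaling (adjusted p = 0.0296), after quantile normalization (0.0337) and without wild-type replicate 2 (0.0138). Adam10 and Adam17 make the first cut after ligand binding, and Psen2 is a catalytic subunit of γ-secretase. Psenen, the highest gene of the list and another subunit of γ-secretase, stood at 256 and 249 TPM and did not pass (limma adjusted p = 0.753).

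**Figure D4:**
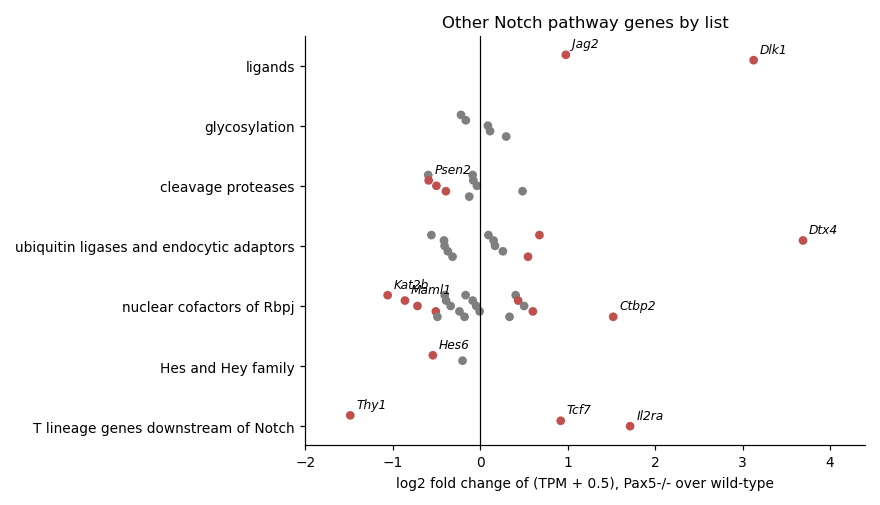
Log2 fold change of the 53 tested genes of the further Notch pathway lists in Pax5(-/-) over wild-type pro-B cells. Points are genes, red where the adjusted p is below 0.05. Dtx4 (3.69) and Dlk1 (3.12) lie farthest to the right, and the cleavage proteases that passed lie to the left of 0.

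Of the 12 ubiquitin ligases and adaptors tested, 3 rose, 0 fell and 9 did not pass. Over all genes tested, 15.6% rose and 21.5% fell. The 3 ligases that rose are Deltex genes. Under other settings Nedd4 also rose, after median-ratio rescaling (limma adjusted p = 0.0204), quantile normalization (0.0223) and without wild-type replicate 3 (0.0444). Aak1 fell after quantile normalization (limma adjusted p = 0.0416), and Aak1 and Numb fell without wild-type replicate 1 (0.0235 and 0.0315). Dtx4 measured 1.45, 1.85 and 2.04 TPM in wild-type and 29.6 and 27.9 TPM in Pax5(-/-) libraries. It was low in all wild-type libraries and higher in both Pax5(-/-) libraries, with a log2 fold change of 3.69 (SE 0.21, limma adjusted p = 2.43e-05). Dtx2 rose from a mean of 61.2 to 89.3 TPM and Dtx3 from 32.0 to 51.1 TPM, with log2 fold changes of 0.54 and 0.68 (limma adjusted p = 0.0137 and 0.00755). Dtx3l, at 33.8 and 36.9 TPM, did not pass (adjusted p = 0.568). Within the family, Dtx1 fell while Dtx2, Dtx3 and Dtx4 rose, and the Meox2-cre libraries held Dtx1 at 3.74 and Dtx4 at 2.17 TPM on average.

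**Figure D5:**
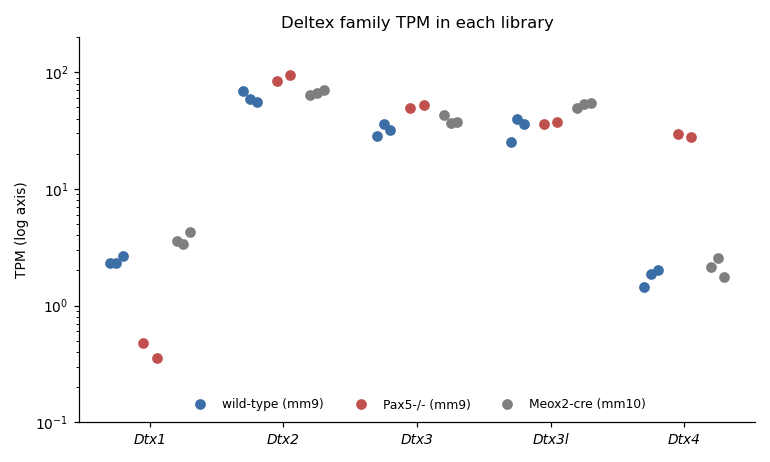
TPM of the Deltex family genes (log axis) in every library of wild-type and Pax5(-/-) (mm9) and Meox2-cre (mm10) pro-B cells. Points are libraries. Dtx4 lies near 28.7 TPM in Pax5(-/-) cells and near 1.78 TPM in wild-type cells, and Dtx1 the other way at lower levels.

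Of the 20 nuclear cofactors of Rbpj tested, 3 rose (Kat2a, L3mbtl3 and Ctbp2), 4 fell (Maml1, Crebbp, Kat2b and Sin3a) and 13 did not pass. These counts are near the shares over all genes tested, of which 15.6% rose and 21.5% fell. Crebbp and Kat2b did not pass without wild-type replicate 2 or 3, without the filter on low values or without the intensity trend. Maml3 and Cir1 rose after median-ratio rescaling (limma adjusted p = 0.0332 and 0.0270) and quantile normalization (0.0368 and 0.0274). Maml1, the Mastermind coactivator of the Notch complex, went from a mean of 59.2 to 31.9 TPM (log2 fold change -0.86, limma adjusted p = 0.00802). Ctbp2, a corepressor, went from 4.54 to 13.9 TPM (log2 fold change 1.52, adjusted p = 0.00155). Ctbp1, the highest gene of the list, stood at 477 TPM in wild-type and 424 TPM in Pax5(-/-) cells and did not pass (limma adjusted p = 0.225). Rbpjl, an Rbpj relative outside the lists that was looked up after the values were seen, measured 0.825, 1.52 and 1.69 TPM in wild-type and was listed at 0 in both Pax5(-/-) libraries.

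Of the other Hes and Hey genes, only Hes5 and Hes6 reached the level for testing. Hes6, which counteracts Hes1, measured 374, 324 and 349 TPM in wild-type and 237 and 241 TPM in Pax5(-/-) libraries, a log2 fold change of -0.54 (SE 0.10, limma adjusted p = 0.00474). Hes5, with the motif pair shown above, measured 18.9, 34.8 and 33.0 TPM in wild-type and 26.3 and 22.2 TPM in Pax5(-/-) libraries. Its genotypes overlap, with an interval of 0.568 to 1.33-fold (limma adjusted p = 0.569). Without wild-type replicate 1, the lowest library, it passed with a log2 fold change of -0.48 (adjusted p = 0.0351). Hey1 and Hey2, the closest relatives of Heyl, were at or near 0.

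Of the 8 T lineage genes known to lie downstream of Notch, 3 were tested, 2 rose and 1 fell. Over all genes tested, 15.6% rose and 21.5% fell, and a list of 3 is too short to compare with these shares. Tcf7, an early T lineage transcription factor, measured 23.9, 44.9 and 25.5 TPM in wild-type and 57.9 and 56.9 TPM in Pax5(-/-) libraries (log2 fold change 0.92, SE 0.26, limma adjusted p = 0.0272), and it did not pass without wild-type replicate 1 (0.0573) or 3 (0.0716). Nor did Tcf7 pass without the filter on low values (limma adjusted p = 0.0645) or without the intensity trend (0.0592). Il2ra, the CD25 chain of thymic progenitors, went from a mean of 1.02 to 4.52 TPM (log2 fold change 1.71, adjusted p = 0.002). In the Meox2-cre libraries it measured 3.90, 5.09 and 4.66 TPM, a level like that of the Pax5(-/-) libraries. Thy1 went from 26.2 to 8.90 TPM (log2 fold change -1.49, limma adjusted p = 0.00122). The other 5, Gata3, Bcl11b, Ptcra, Cd3e and Cd3g, had means under 1 TPM in both genotypes.

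The genes with the profiles most like those of the 2 called genes were taken by the Euclidean distance between mean-centred log2(TPM + 0.5) values over the 5 libraries. For Notch1 these were 2410004P03Rik (distance 0.14), Fgd5 (0.18) and Camk2a (0.18). Their means were 2.22, 0.902 and 3.41 TPM in wild-type and 9.50, 4.91 and 13.7 TPM in Pax5(-/-) cells, all far below the level of Notch1. For Heyl they were Grb7 (distance 0.35), Lef1 (0.60) and Pcp4l1 (0.61), with wild-type means of 87.8, 535 and 233 TPM and Pax5(-/-) means of 0.260, 6.13 and 2.26 TPM.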

How the data were processed

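RNA-seq was performed by the authors on poly(A) RNA of pro-B cells sorted from mouse bone marrow. For the 3 wild-type and 2 Pax5(-/-) libraries they aligned reads to mm9 with TopHat 1.4.1a and counted them with featureCounts 1.5.0 on refGene, which they had modified. Reads of the 3 Meox2-cre libraries were aligned to mm10 with STAR 2.4.2a. The deposited values are TPM, which the authors calculated within each library, so depth in reads is unknown. Low TPM values put relative depth at 0.855 to 1.54 times replicate 1 of the mm9 tables. Groups came from the sample labels, and replicate numbers only name libraries. As nothing states that libraries came from separate mice, p-values measure the spread between these samples.

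Both genotypes were compared by limma 3.58.1 (eBayes with intensity trend, R 4.3.3) on log2(TPM + 0.5) without covariates, since the study's DESeq2 test needs counts. On simulated data with 200 of 11644 genes changed 6-fold, the fit called 193 of the changed genes and 8 others. The Meox2-cre libraries entered no test. The genes and lists were chosen with earlier results of these data known. Named were the 8 genes, pathway genes called by the study's thresholds, otherwise the 2 highest genes of each list, and the 3 nearest profiles of each called gene; some genes under this rule are not reported here. Jag2, Dtx2, Dtx3, Dtx3l, the other pathway genes given with values, and the genes singled out in the text were chosen after values were seen. Gene coordinates were taken from GENCODE (mm9) and promoters from RefSeq. The alternatives were other pseudocounts, filters, moderation settings, scalings and thresholds, and leaving out each library. Summaries used pandas 2.3.3 in Python 3.11.15, and matplotlib 3.10.9 drew the figures. The ChIP-seq samples are not analysed here.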

Additional observations from a re-analysis of the deposited data

How the results depend on the processing

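Notch1, Notch2, Heyl and Dtx1 kept their direction and an adjusted p below 0.05 under the other pseudocounts, filters, moderation settings and scalings and without any 1 library, wherever they were tested. Against 3-fold itself (limma treat), Heyl alone had an adjusted p below 0.05, and that of Notch1 was 0.911. With a filter at a mean of 5 TPM, 1 of the 8 genes fell in place of 2, since Dtx1 was then not tested. Of the calls with thresholds of size and level, limma's treat test at 3-fold left 0 of the 8 genes called higher, and a 2-fold threshold gave 2. Leaving out each library in turn gave 4 to 13 further pathway genes that rose and 1 to 14 that fell, in place of 10 and 9, lowest without a Pax5(-/-) library and, for genes that fell, highest at 14 without wild-type replicate 1. The lone Pax5(-/-) library is then assumed to vary like the wild-type libraries. Over the fits that each left out 1 library, the log2 fold change ranged from -0.0045 to 0.21 for Notch3 and from -0.056 to 0.22 for Hes1. For Nrarp it ranged from -0.068 to 0.30. None of these genes passed with a wild-type library left out. The Notch1 share difference ranged from 2.69 to 3.67 percentage points. Rbpj passed with median-ratio rescaling (0.40) and quantile normalization (0.39) and with no other alternative. No paired analysis was possible because replicate numbers are absent from the labels.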
